A study of Mus musculus with 4 samples.

Results

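Both myogenic mutants of this series were compared here with the wild type of their own body region, and the pair of comparisons was then joined. The members are all 4 of the 4 arrays, which form 2 region-matched pairs: MyoD-null limb over WT limb, and Myf5-null back over WT back. For every gene a log2 ratio was taken in each pair. The quantity described is the mean of both ratios, with the standard deviation (SD) between the pairs beside it (n = 2 pairs). The pairs are different mutants in different regions, so this SD describes their disagreement and not the spread between embryos. It is small by choice in genes named for being alike. A gene counts as alike in both pairs where both ratios have the same sign and the smaller is at least 0.5 of the larger.

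The arrays hold total RNA from muscle of BALB/c mouse embryos at E13.5, taken from the limb of wild-type embryos, the limb of embryos null for Myod1, the back of wild-type embryos and the back of embryos null for Myf5. Each group is 1 array, and the labels do not say how many embryos were pooled, nor how the null alleles were made. By its title, the series concerns what skeletal muscle contributes as motor neurons develop. The comparison asks which genes differ from wild type in the same way in both mutants, although mutant and region change together and cannot be told apart. The signal used below is the deposited intensity scaled to a trimmed mean of 500 per array. Signals under 100 were treated as not measured, so that a ratio against one is given as "at least" a fold. Of 18193 genes named on the array, 10551 reached 200 in the brighter array of each pair, and counts refer to these.

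MyoD and Myf5 are basic helix-loop-helix transcription factors that commit embryonic cells to the skeletal muscle lineage and bind E-boxes in the promoters and enhancers of muscle genes. Myf5 acts early in the muscle of the back, MyoD has a large part in limb muscle, and each can partly stand in for the other. Myogenin acts after them, when myoblasts leave the cell cycle, fuse and build sarcomeres, the contractile units of thick and thin filaments.

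The targeted genes were looked at first. In the limb pair Myod1 read 1438 in wild type and 688 in the mutant, and in the back pair 2870.3 in wild type and 2333 in the mutant array. Myf5 had 506 and 1019 in the limb pair and 508 and 583 in the back pair, wild type first. The array labelled Myf5-null back thus had no less Myf5 signal than its wild type, and Myod1 transcript was still measured in the MyoD-null limb. Whether the probes lie inside the deleted parts was not tested, so neither gene checks a label. Myog, the gene of myogenin, was lower in both pairs, at 2401 and 1737 in limb and 4934 and 3404 in back (mean log2 ratio -0.50 ± 0.048, SD, n = 2 pairs). Muscle RNA was measured in every array: of 10 muscle markers, Des, the muscle intermediate filament, had the lowest signal, 300.0 in WT limb. Other tissues were measured as well, with all 12 epidermal genes and all 18 fibroblast genes on the array at 100 or more in each array. These markers therefore do not show how pure the muscle was.

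Over all genes the pairs did not move together. Of the 10551 genes, 2173 (20.6%) were above 0 in both pairs, 2170 (20.6%) were below 0 in both, and the other 6208 had opposite signs. Across genes the limb and back ratios had a Pearson correlation of -0.17 and a Spearman correlation of -0.21. The 2 ratios share no array, but genes are not independent replicates and no p-value is given. At least 2-fold differences in the same direction were found for 30 genes higher in both mutants (0.284%) and 32 genes lower in both (0.303%), while 104 genes (0.986%) passed 2-fold in opposite directions. At 1.5-fold these counts were 119 (1.13%), 137 (1.3%) and 450 (4.26%). Within a single pair, 2.45% of genes were 2-fold higher and 4.16% lower in the limb, and 3.41% higher and 2.54% lower in the back. Of the 30 and 32 genes, 29 and 32 were alike in size. Passing 2-fold in both pairs makes this likely by itself, so it is no separate result. Of all 2170 genes below 0 in both, 877 were alike. Hybridisation spikes, which are added to the sample and hold no mouse RNA, also ran in opposite directions. Their 18 probe sets had a median log2 ratio of -0.69 in the limb pair and 0.59 in the back pair, and of -0.05 in the mean of the pairs. Labelling spikes, another kind of added control, did not cancel in this way. Their 3′ probe sets had medians of -0.21 in limb and 0.64 in back, and their 5′ probe sets 0.13 and 0.27. In the mean of the pairs these were 0.26 and 0.30. The part of either kind of spike in the negative correlation was not tested.

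Most of the 2-fold genes were dim. The median of their brightest signal was 340.3 for those higher and 339 for those lower, against 1020 for all genes tested, and 29 of the 30 and 30 of the 32 were among the 2638 genes of lowest mean signal. Signals of 100 or more in all 4 arrays were found for 5 of the 30 and 9 of the 32. For the rest at least 1 ratio is a bound. Among the 2638 brightest genes, 36 were on the muscle lists. At least 1.5-fold lower in both pairs were 13 bright genes, and 9 of the 13 were on these lists. Of the same bright genes 6 were at least 1.5-fold higher, none of them on a muscle list, as so small a share alone would give.

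**Figure D1:**
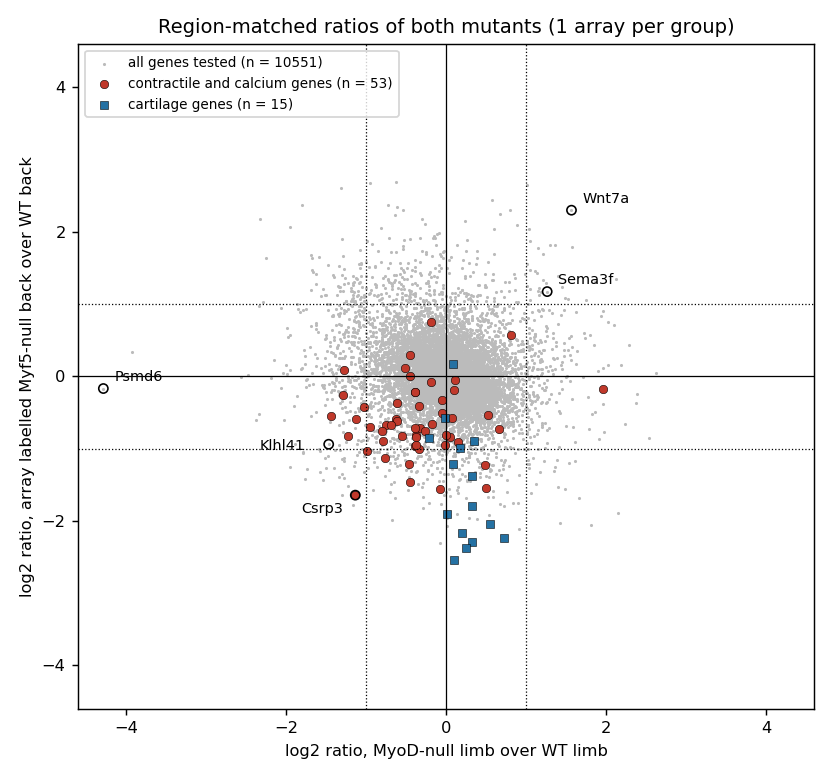
Log2 ratio of the limb pair (x axis) against that of the back pair (y axis) for 10551 genes, with dotted lines at 2-fold. Grey points form a cloud with a correlation of -0.17, whereas 37 of the 53 contractile and calcium genes (red) lie in the lower left quadrant. Of the 15 cartilage genes (blue), 14 are below 0 in the back pair and 2 in the limb pair.

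Of the 32 gene lists, the lists of muscle contraction had the largest shares of genes lower in both mutants. The joined lists of the thick filament, the thin filament, the Z disc and M band, and calcium handling held 72 genes in all, of which 53 were bright enough. Of these 53, 37 (69.8%) were below 0 in both pairs, against 20.6% of all genes, and 1 was above 0 in both. Those below 0 in both and alike in size numbered 18 (34.0%, against 8.31% of all genes). The median ratio was -0.39 in the limb pair and -0.67 in the back pair, where all genes had medians of 0.01 and -0.01. Taken one by one, 42 of the 53 were below 0 in the limb pair and 47 in the back pair. Their summed signal in the mutant was 71.7% of the wild-type sum in the limb pair and 66.2% in the back pair. In bulk tissue, fewer muscle cells and less RNA per muscle cell cannot be told apart. Among the 37 genes lower in both, 22 had the larger difference in the back and 15 in the limb.

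In the thick filament, 6 of 10 genes were lower in both and none was higher. Myh3, the embryonic myosin heavy chain, had 17860.5 and 9209 in the limb pair and 30238 and 18576 in the back pair, wild type first (1.94-fold and 1.63-fold lower). Myh7, the slow and cardiac heavy chain, had 4887 and 2866 in limb and 14575 and 6640.1 in back (1.71-fold and 2.19-fold lower). For both genes the wild-type back was the brightest array, and each mutant lay below its own wild type. Mylpf, a fast regulatory light chain, was closest between the pairs, with 6768 and 4026 in limb and 12922 and 8113 in back (mean log2 ratio -0.71 ± 0.055). Myh1, an adult fast heavy chain, went the other way in the limb alone, with 322 and 1256 there and 538 and 475 in back.

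The thin filament had 10 of 14 genes lower in both and none higher. Tnnc2, the calcium sensor of fast muscle, had 4103 and 1756 in limb and 8079.6 and 4549 in back (-1.03 ± 0.28). Tmod1, which caps the pointed ends of actin filaments, had 902 and 455 in limb and 1426 and 697 in back, and its ratios differed by little (-1.01 ± 0.033). Tnni1, the inhibitory troponin of slow muscle, had the same ratio in both pairs to 2 decimals, -0.62, from 2577 and 1681 in limb and 5344 and 3488 in back. Acta1, skeletal alpha-actin, was about as alike. Its signals were 9592 and 6172 in limb and 27605 and 18392 in back (-0.61 ± 0.036). The 4 genes that did not share a sign were Neb, Tnnt2, Tpm2 and Lmod3. Neb, the thin filament ruler nebulin, had 172 and 242 in limb and 1317 and 452 in back.

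Of 18 Z disc and M band genes, 12 were lower in both and 1 was higher. Csrp3, muscle LIM protein of the Z disc, was the member furthest below wild type in both mutants, at 474 and 215 in limb and 968 and 309.8 in back (2.2-fold and 3.12-fold lower). It was also the single muscle-list gene past 2-fold in both pairs. Synpo2l, an actin-binding Z disc protein, had 1664 and 959 in limb and 3015 and 1622 in back. Myom2, an M band protein, had 2909 and 1326 in limb and 3404 and 2268 in back. The exception was Trim54, a sarcomere-associated RING finger protein, at 169 and 295 in limb and 176 and 260.1 in back.

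Calcium handling had 9 of 11 genes lower in both and none higher. Casq2 and Casq1 encode the calcium-binding proteins of the sarcoplasmic reticulum. Casq2 had 949 and 545 in limb and 1264 and 746 in back, and Casq1 403 and 249.8 in limb and 509 and 320.1 in back. The pairs differed by an SD of 0.03 and 0.014 around means of -0.78 and -0.68. The 2 remaining genes were Atp2a2, the slow calcium pump, and Asph, both near 0 in mean ratio (-0.04 and 0.03).

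**Figure D2:**
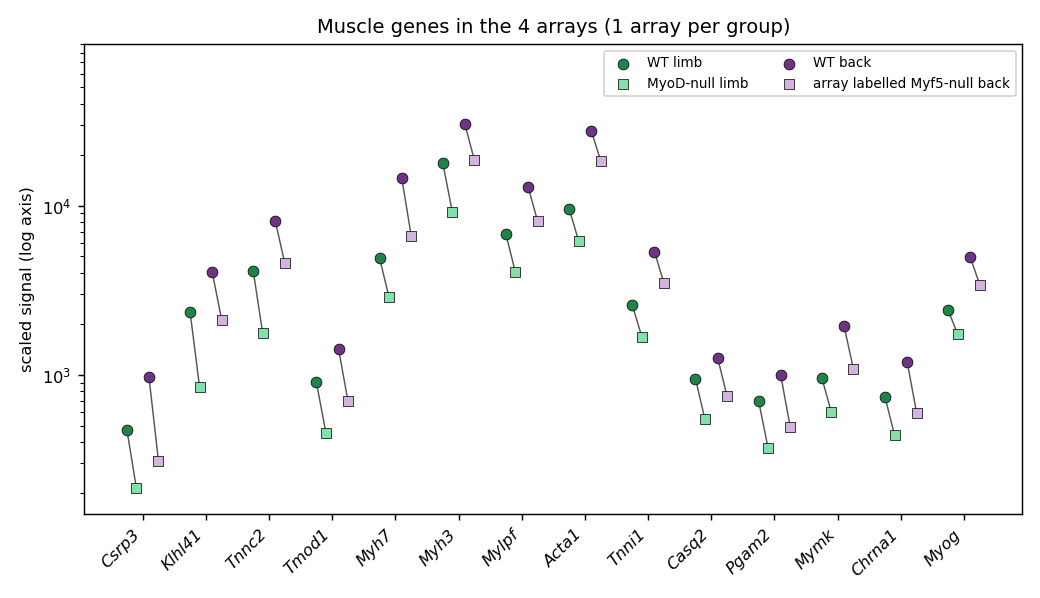
Scaled signal (log axis) of 14 muscle genes in the 4 arrays, circles for wild type and squares for mutants, with a line joining each mutant to the wild type of its region. Each mutant lies below its own wild type for every gene drawn, for example Csrp3 at 474 and 215 in limb and 968 and 309.8 in back. The genes were chosen for being lower in both.

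Genes of differentiation and fusion were lower in both for 11 of 19 and higher for 1, Jam3. Klhl41, a Kelch protein that stabilises nebulin and thin filaments, had 2359 and 851 in limb and 4059 and 2117 in back (-1.21 ± 0.38). Mymk, the membrane protein myomaker that drives myoblast fusion, had 956 and 603 in limb and 1953 and 1081 in back. Cdkn1a, the p21 inhibitor of the cell cycle that differentiating myoblasts switch on, had 2811 and 1874 in limb and 4575 and 2669 in back, by 1 of its 2 informative probe sets. All of these were alike in size between the pairs. Unc45b, the myosin chaperone, was not, with 918 and 790.3 in limb and 1835 and 544 in back. In muscle energy metabolism 5 of 11 genes were lower in both and 1, Car3, was higher. Pgam2, the muscle phosphoglycerate mutase, had 699 and 368 in limb and 992 and 489.7 in back. Car3 had 311 and 1905 in limb and 862 and 893 in back, so that its difference lay in the limb.

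The myogenic regulators shared a sign in both pairs about as often, but in both directions. Of 13 genes, 4 were lower in both (Myod1, Myog, Mef2c and Mef2a), 5 were higher in both, and none passed 1.5-fold in both. Of 7 muscle progenitor genes, 2 were lower and 2 higher in both. Pax7, the marker of muscle stem cells and their precursors, had 445 and 625 in limb but 681 and 261 in back. The progenitor list had a median of 0.43 in limb and -0.47 in back. Across all muscle lists, 103 of 141 genes were tested, and 16 of them (15.5%) were at least 1.5-fold lower and alike in size in both pairs, where 1.11% of all genes were. No muscle gene was at least 1.5-fold higher in both (0 of 103, where 1.13% of all genes passed that fold upward).

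The genes through which muscle and nerve meet had no common direction. At the neuromuscular junction 2 of 12 genes were lower in both and 1 was higher. Chrna1, which encodes the alpha subunit of the acetylcholine receptor, had 738 and 442 in limb and 1193 and 596 in back (-0.87 ± 0.18), and Chrnb1, the beta subunit, had 332 and 257 in limb and 993 and 710.4 in back. Utrn, utrophin, was the one higher in both, at a mean ratio of 0.24. Of 12 neurotrophic factors 3 were lower in both (25%) and 2 higher (16.7%). Of 22 guidance cues 6 were lower (27.3%) and 7 higher (31.8%), where all genes had 20.6% each way. Nrtn, neurturin, had 864 and 337 in limb and 566 and 493 in back, so that its difference lay in the limb.

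**Figure D3:**
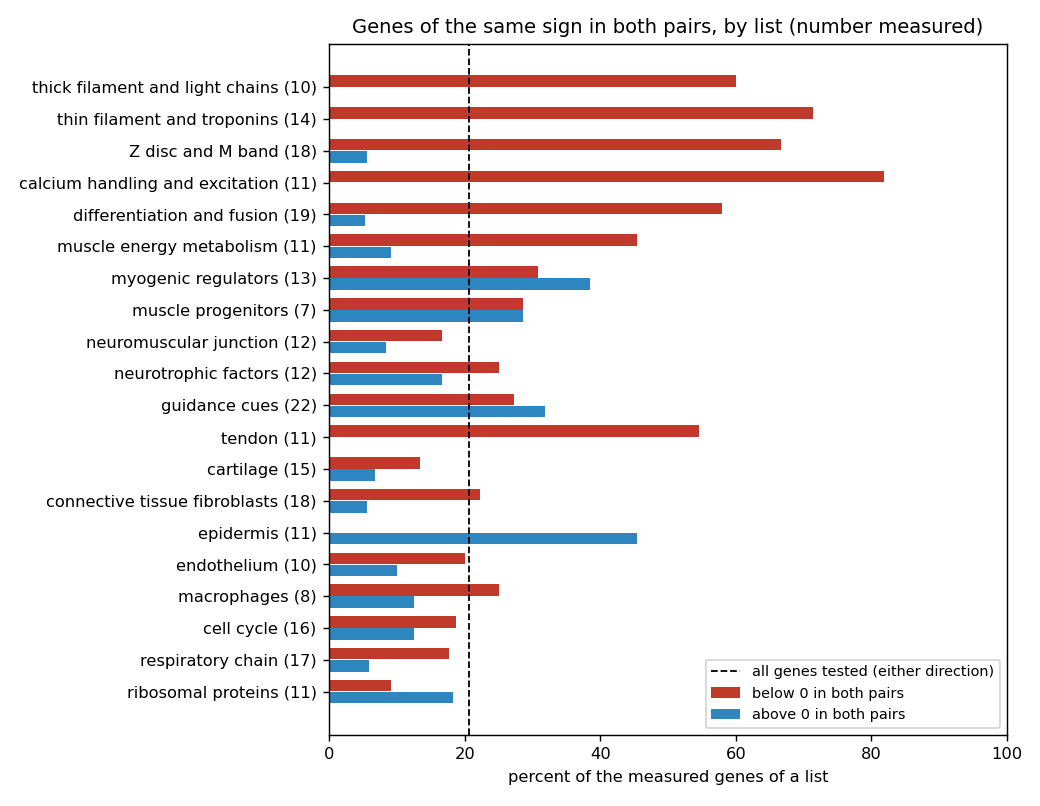
Percent of the measured genes of each list that were below 0 (red) or above 0 (blue) in both pairs, with the number measured in brackets. The dashed line marks 20.6%, the share of all 10551 genes in either direction. Calcium handling (9 of 11) and the thin filament (10 of 14) lie furthest above it.

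Promoter sequences are shown for 5 of the muscle genes lower in both, since MyoD and Myf5 bind E-boxes. Each is 300 bases from RefSeq (build GRCm38.p6), 250 before the transcription start and 50 after it, read 5′ to 3′ on the gene's strand. Capitals mark CAGCTG, an E-box letter sequence of the wider form CANNTG, and both read the same on either strand.

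Klhl41: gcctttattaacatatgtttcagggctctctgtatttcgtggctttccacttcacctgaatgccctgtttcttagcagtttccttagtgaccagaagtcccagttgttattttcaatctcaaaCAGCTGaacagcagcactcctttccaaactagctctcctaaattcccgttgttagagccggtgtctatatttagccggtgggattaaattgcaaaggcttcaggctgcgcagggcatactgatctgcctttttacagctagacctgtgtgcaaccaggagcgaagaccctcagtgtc

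Mylpf: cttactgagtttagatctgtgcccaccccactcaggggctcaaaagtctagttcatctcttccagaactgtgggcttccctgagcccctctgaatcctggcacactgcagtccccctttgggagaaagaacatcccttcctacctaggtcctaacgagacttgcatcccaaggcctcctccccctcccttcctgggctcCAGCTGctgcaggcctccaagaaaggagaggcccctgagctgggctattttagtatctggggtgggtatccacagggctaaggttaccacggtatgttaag

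Tnni1: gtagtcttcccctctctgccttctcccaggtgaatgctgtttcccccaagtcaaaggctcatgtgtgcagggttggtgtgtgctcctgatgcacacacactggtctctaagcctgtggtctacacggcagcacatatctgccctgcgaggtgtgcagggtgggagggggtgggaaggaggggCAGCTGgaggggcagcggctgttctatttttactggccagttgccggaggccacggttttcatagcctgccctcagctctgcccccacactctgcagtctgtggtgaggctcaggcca

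Chrna1: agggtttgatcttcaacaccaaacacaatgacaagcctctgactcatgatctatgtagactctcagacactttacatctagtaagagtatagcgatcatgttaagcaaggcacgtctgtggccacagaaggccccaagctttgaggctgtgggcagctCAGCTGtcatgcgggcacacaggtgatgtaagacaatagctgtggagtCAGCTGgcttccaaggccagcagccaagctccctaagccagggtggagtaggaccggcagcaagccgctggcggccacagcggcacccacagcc

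Tnnc2: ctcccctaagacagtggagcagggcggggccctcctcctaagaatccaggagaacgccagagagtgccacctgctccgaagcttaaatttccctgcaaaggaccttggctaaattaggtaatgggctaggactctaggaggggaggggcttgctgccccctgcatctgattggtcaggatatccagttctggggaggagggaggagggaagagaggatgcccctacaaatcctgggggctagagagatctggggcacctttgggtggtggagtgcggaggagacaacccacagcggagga

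These windows are chr2:69669870-69670169 on the + strand for Klhl41, chr7:127211358-127211657 (+) for Mylpf, chr1:135799171-135799470 (+) for Tnni1, chr2:73580289-73580588 (-) for Chrna1 and chr2:164779685-164779984 (-) for Tnnc2. The CAGCTG of Klhl41 starts 127 bases upstream of the transcription start, that of Mylpf 51 and that of Tnni1 68, and Chrna1 has a pair of them, 92 and 44 bases upstream. The Tnnc2 window holds none, although the gene was lower in both pairs. Nor do the windows of Csrp3, Tmod1, Myh7, Myh3, Casq2 and Synpo2l, which are not printed. Promoters of the muscle-list genes that were not lower were not counted, so a tie of CAGCTG to being lower was not tested. Of the 16 muscle-list genes that were lower and alike, 14 had a promoter in the table, and 7 of these 14 held CAGCTG. It was found in 16.1% of all 27025 promoters, in 14.6% of the 8551 promoters of tested genes, in 18 of 87 of all genes that were 1.5-fold lower and alike (20.7%), and in 9 of 70 of those higher (12.9%). Past 2-fold in both pairs the order was the other way, with CAGCTG in 0 of 23 promoters of the lower genes and in 6 of 22 of the higher ones (27.3%). CANNTG was found in 13 of the 14, in 72.1% of all promoters and in 61.5% of those of tested genes. It was in 63 of the 87 promoters of the lower genes (72.4%) and 46 of the 70 of the higher (65.7%), and past 2-fold in 18 of 23 and 19 of 22. A match describes the letters in this window only.

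Beyond the lists, some genes lower in both have known roles in muscle. Smpx, a small muscle protein that responds to stretch, had 360.2 and 176 in limb and 556 and 259 in back, and Asb2, a subunit of a ubiquitin ligase present in muscle, had 453 and 222 in limb and 576 and 231 in back. Both were named after their values were seen. Dtna, dystrobrevin alpha of the dystrophin complex, had 300.2 and 95.0 in limb and 249.9 and 91.7 in back, where both mutant signals are under 100, so that the differences are at least 3.0-fold and at least 2.5-fold. The mean log2 ratio of Dtna, -1.45, became 0 with the median over its probe sets, -0.13 without probe sets of shared probes and -0.45 with a floor of 200. Smtnl2, a smoothelin-like protein, was past 2-fold in both and measured in all 4 arrays, with 655 and 270.4 in limb and 567 and 214 in back. Ank1, an ankyrin with a short muscle form at the sarcoplasmic reticulum and a red cell form, had 788 and 395 in limb and 1131 and 711 in back. Slc4a1, the anion exchanger of red cells, was lower by a like amount, with 759 and 451 in limb and 842 and 528 in back. With the median over probe sets the mean ratios of Ank1 and Slc4a1 went from -0.83 and -0.71 to -0.47 each. Of 6 red cell genes 2 were lower in both and 1 was higher. Other bright genes lower in both were Cthrc1, Slc35a2, Tmco1 and Txndc17. Slc35a2, the UDP-galactose transporter of the Golgi, had 3023 and 1791 in limb and 3015 and 1792 in back by its brightest probe set, but most of its other probe sets did not share the sign, nor did those of Txndc17.

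Genes higher in both mutants were fewer among bright signals. Sema3f, a secreted semaphorin that repels growing axons, was the brightest of the 30 genes past 2-fold. It had 4004 and 9587 in the limb pair and 4092 and 9229 in the back pair (2.39-fold and 2.26-fold higher, mean log2 ratio 1.22 ± 0.061). That value comes from 1 of its 3 probe sets, and the others did not share it, as given below. Tmem38b had 769 and 1515 in limb and 527 and 1403 in back by its brightest probe set. Of its 4 informative probe sets, 3 were higher in both pairs. Tial1, an RNA-binding protein of stress granules, had 2509 and 4221 in limb and 2161 and 3571 in back by its brightest probe set, and Pygb, a glycogen phosphorylase, 1529 and 2382 in limb and 1860.3 and 2869 in back. Among dimmer genes, Wnt7a, a secreted Wnt protein, had 91.3 and 296 in limb (at least 2.96-fold) and 113 and 556 in back (4.92-fold). Its mean log2 ratio of 1.93 became 0.38 with the median over probe sets and 1.02 with a floor of 200. Map2, a microtubule protein of neurons, had 603 and 1184 in limb and 174 and 304 in back, and its mean ratio of 0.89 became 0.23 with that median. Egr3, a transcription factor needed for muscle spindles, had 119.6 and 293 in limb and 33.5 and 351 in back, the last pair giving at least 3.51-fold. Gdf5, a growth factor of joints and tendon, had 726 and 1304 in limb and 53.2 and 267 in back, at least 2.67-fold. With a floor of 200 the mean ratios of Egr3 and Gdf5 went from 1.55 and 1.13 to 0.68 and 0.63, and that of Egr3 was 0.85 with the median over probe sets.

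Among markers of other tissues the tendon list was nearest to the muscle lists. Of 11 tendon genes 6 were lower in both and none was higher, with medians of -0.37 in limb and -0.30 in back. Summed over the list, the signal was 17992.5 and 14610 in limb and 24398.5 and 19904 in back. Cartilage differed mainly in the back pair. Of 15 genes 14 were below 0 there and 2 in both pairs, and their summed signal was 24455 and 28801 in limb but 26820.2 and 7908 in back. Col2a1, the main collagen of cartilage, had 3343 and 4173 in limb and 5495 and 1119 in back. Fibroblast genes were lower in both for 4 of 18 and higher for 1, with 209794 and 179904 in limb and 243001 and 255094 in back as their sums, and neuron genes were lower for 3 of 7 and higher for 1. Epidermal genes were higher in both for 5 of 11 and lower for none, with Krt14, a keratin of the basal layer, at 2411 and 3093 in limb and 1739.5 and 2229 in back. Immediate early genes, the first that cells switch on after many stimuli, were higher in both for 4 of 8 and lower for none, with Fos at 183 and 361 in limb and 206 and 248 in back. Of 17 Notch pathway genes, 6 were lower in both and none higher, with medians of -0.002 and -0.14. The part of tissue composition in the muscle differences was not tested. Xist, the RNA that coats the inactive X chromosome, stood apart in the array labelled Myf5-null back. Its brightest probe set read 7997 and 8067 in limb and 8611 and 2224 in back.

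Agreement over all probe sets of a gene was low in general. A probe set was taken as informative where at least 1 array of each pair reached 100, and 5396 genes had 2 or more such probe sets. In 174 of these genes (3.22%) every informative probe set was below 0 in both pairs, and in 178 (3.30%) every one was above 0. Between probe sets of a gene the median SD was 0.39 for the limb ratio, 0.36 for the back ratio and 0.24 for their mean. Across genes, the mean ratios of the brightest and the next probe set had a Pearson correlation of 0.08. Probe sets of a gene share the RNA, so they check the probe and not the embryo. Of the 53 contractile and calcium genes, 17 had 2 or more informative probe sets, and in 3 of them every probe set was below 0 in both pairs, in none above. Among genes at least 1.5-fold in both, all informative probe sets agreed for 9 of 45 lower and 8 of 39 higher. The brightest probe set of such a gene has the sign by choice. These shares therefore cannot be set beside the 3.22% and 3.30% of all 5396 genes. For the 17 contractile and calcium genes the same caution holds, since most of the 53 were lower by their brightest probe set.

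The agreeing genes with most probe sets were few and had modest differences. Of 341 genes with 5 or more informative probe sets, 2 were lower and 1 was higher in both pairs by all of them. Fmod, fibromodulin of tendon matrix, was lower in both pairs by all 6 of its probe sets, with a mean of -0.42 and an SD of 0.15 between them. Its brightest probe set had 2238 and 1577 in limb and 1787 and 1306 in back. Mef2c, the MADS-box partner of the myogenic factors, was lower by all 5, with a mean of -0.56 and an SD of 0.18, although single ratios ran from -0.95 to -0.05 in limb and from -1.43 to -0.31 in back. Fahd2a was higher by all 5, with a mean of 0.32. Ryr1, the calcium release channel, was lower by both of its probe sets, whose mean ratios were -0.66 and -0.73, and Smtnl2 by both of its own, at -1.34 and -1.68. For Tspan33, a tetraspanin, and Gnptab, a lysosomal enzyme subunit, all 3 probe sets agreed on lower and on higher, with means of -0.51 and 0.56.

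For other named genes the probe sets disagreed. The 3 probe sets of Sema3f gave mean ratios of 1.22, 0.18 and 0.12, and the dimmer ones had opposite signs in the pairs. With the median over them the mean ratio was 0.37. Cdkn1a was lower in both by 1 of 2, and its mean ratio of -0.68 became -0.15 with the median over probe sets. Among the bright genes, Slc35a2 shared the sign in both pairs in 2 of 5 probe sets, Txndc17 in 1 of 4 and Tial1 in 2 of 4. Myod1 and Pax7 had 1 of 2 probe sets with the sign of the mean ratio in both pairs, Utrn 1 of 3 and Krt14 2 of 3. Synpo2l was lower in both pairs by 2 of 4 probe sets. Myom2 was lower by 3 of 4, and the last was near 0 at -0.05. The 6 probe sets of Ttn, the giant spring protein titin, gave mean ratios from -0.72 to 0.11. Csrp3, Klhl41, Tnnc2, Tmod1, Mylpf, Tnni1 and Chrna1 had 1 informative probe set each, so nothing on the array checks their probes. Of the 117 genes at least 1.5-fold lower and alike, 8 had 2 or more agreeing probe sets, 81 had 1 and 28 had a probe set of another sign. For the 95 genes higher, these numbers were 6, 63 and 26.

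**Figure D4:**
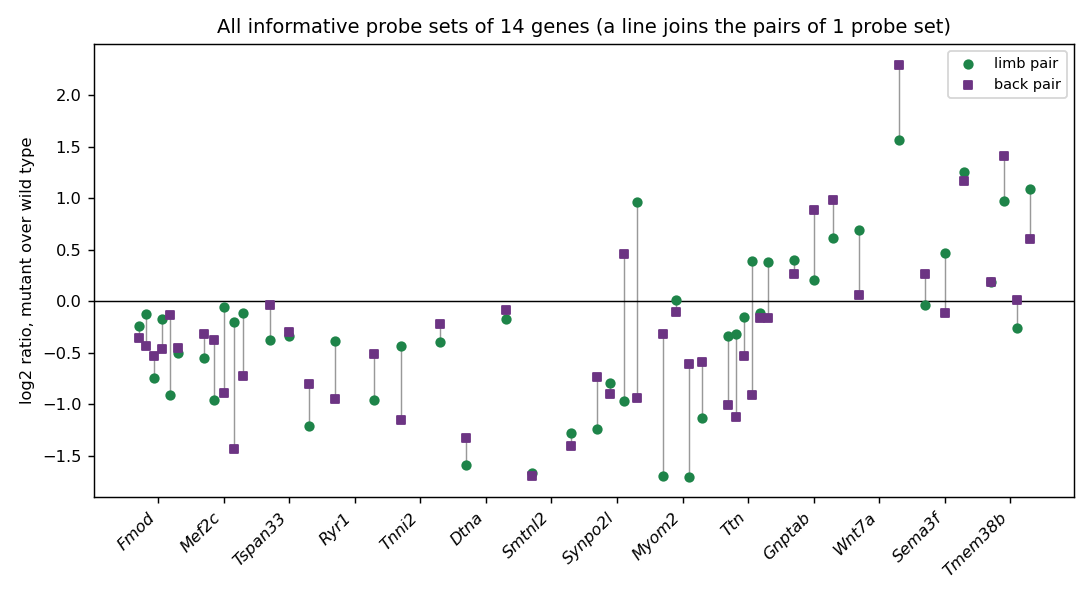
Log2 ratio of every informative probe set of 14 genes in the limb pair (circles) and the back pair (squares), a line joining the values of 1 probe set. All 6 probe sets of Fmod and all 5 of Mef2c lie below 0 in both pairs, while for Sema3f 1 probe set stands above 1 and the others lie near 0.

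The pairs also allow a test in which the regions serve as blocks. limma with the region as block called 19 genes at an adjusted p under 0.05 (0.18% of 10551), 9 higher and 10 lower, and 302 (2.86%) had an unadjusted p under 0.05. The last share is smaller than a threshold of 0.05 passes where nothing differs, so it adds no support to the calls. The p-values set the mean of both ratios against the disagreement between the pairs, pooled over genes of like signal. They do not measure the spread between embryos. With 1 residual degree of freedom against 852 prior degrees, a gene's own disagreement weighs little. Of the 19, 17 had the same sign in both pairs, 6 were alike in size and 2 were past 2-fold in both. Klhl41 fell (limma adjusted p = 0.00445), as did Tnnc2 (limma adjusted p = 0.0418), and Sema3f rose (limma adjusted p = 0.00515). Tceal7, a small nuclear protein named after its values were seen, also fell, with 490.4 and 163 in limb and 1766 and 878 in back (limma adjusted p = 0.0291). Csrp3, with a larger mean ratio but dimmer signals, was not called (limma adjusted p = 0.111). In several called genes the difference lay in 1 pair. Psmd6, a proteasome subunit, had 7477 and 383 in limb but 6373 and 5673 in back, and still had the smallest limma adjusted p, 1.24e-12. These values come from a probe set whose name marks shared probes, and without such probe sets the mean ratio of Psmd6 went from -2.23 to -0.32 (-1.28 with the median over probe sets). Car3, a muscle carbonic anhydrase, was similar in kind, with 311 and 1905 in limb and 862 and 893 in back (mean ratio 1.33, and 0.21 with the median over probe sets). The calls depended on the processing: quantile normalization left 0 of them, with 261 genes at an unadjusted p under 0.05.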

How the data were processed

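Per the labels' protocols, the starting material was 6 µg of Trizol-extracted total RNA, labelled with biotin as cRNA. The deposited values are intensities on a linear scale, 1 per probe set and array, made by the authors with MAS5 per the submitters' processing notes (version not given in the sources used here). There were 45101 probe sets, including 64 controls. Platform annotation gives 1 symbol for 34945, several for 932 and none for 9160, which are unnamed here. Of these, 34741 matched RefSeq by Entrez number, and 0 symbols changed.

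Groups were read from the sample titles. Each array was scaled to a 2% trimmed mean of 500, a floor of 100 was applied, and the deposited intensities so treated gave the log2 ratios. This floor shrinks the ratios of dim genes. At 100 or more were 56.0% to 63.6% of probe sets per array. Each gene is given by its brightest probe set, by mean log2 signal. With 1 array per group no test over embryos exists, and precision is limited by there being so few arrays.

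The members, gene lists and tests were chosen with earlier results of these data known. Named genes were those at least 1.5-fold and alike in both pairs, also of that sign under quantile and loess scaling. From these came up to 10 each way with agreeing probe sets (6 higher and 8 lower met this), 5 with 1 probe set and 3 with disagreement. Up to 4 members per list, the 3 largest opposite genes each way, the myogenic factors and up to 10 limma calls were added. Clone-type names were passed over. The text gives part of them, and other genes given from the fixed lists illustrate their counts. limma 3.58.1 in R 4.3.3 fitted the region as block with a trended prior and Benjamini-Hochberg adjustment. Tested on simulated data, it recovered 198 of 200 genes changed by a log2 ratio of 2 in both pairs, with 7 false calls among 10551 genes. The simulated noise was the same for dim and bright genes and the change the same in both pairs. Recovery of the smaller and less even differences of the real arrays was therefore not tested. Python 3.11.15, pandas 2.3.3 and statsmodels 0.14.6 did the rest. Alternatives were no rescaling, quantile, loess (span 0.3), floors of 50 and 200, a pseudocount of 100, the median over probe sets, leaving out probe sets whose names mark shared probes, and, for the limma fit (without loess), no block, no trend and no filter. The single pairs and stricter probe-set numbers were added after seeing the data.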

Additional observations from a re-analysis of the deposited data

Results flagged for a closer look

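Some genes moved in opposite directions in the pairs, and these differences were not tested. As log2 ratio of the limb pair minus that of the back pair, the genes higher in limb were Arhgap27 at 4.04, G6pc3 at 3.87 and Vps33b at 3.34. Genes lower in limb were Eepd1 at -4.51, Otud3 at -4.27, Tmem52 at -4.19 and Cd8a at -4.02. In each of these genes at least 1 of the 4 signals was under 100 and was set to it, so every one of these differences is a bound, at least as large as the size printed.

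Of the gene lists, the median of the limb pair minus that of the back pair was 1.99 for cartilage, 0.90 for muscle progenitors and 1.30 for the sex-linked genes, of which 2 were measured. Outside the mouse genes, the hybridisation spikes had a median log2 ratio of -0.69 in the limb pair and 0.59 in the back pair.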

How the results depend on the processing

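Leaving out a replicate was not possible with 1 array per group. Contractile and calcium genes lower in both numbered 30 to 38 under the 8 alternatives of scaling, floor, gene summary and probe-set choice, with fewer genes measured in some, and 42 were below 0 in the limb pair alone and 47 in the back pair alone. The correlation across genes ranged from -0.18 to -0.13. The counts of 2-fold genes rest on dim signals: a floor of 200 gave 3 higher, 5 lower and 13 opposite, a pseudocount of 100 gave 7, 8 and 29, the median over probe sets 11, 20 and 56, and 1.5-fold in place of 2-fold 119, 137 and 450. With the pairing dropped (no replicate block), limma called 0 genes, with 151 at an unadjusted p under 0.05. The pairing is the region, not an animal. limma called 9 genes without rescaling, 1 with the median over probe sets, and 0 with quantile normalization, no filter or no trend, where 261, 507 and 370 had an unadjusted p under 0.05. Its other alternatives gave 13 to 20. Genes whose probe sets all agreed numbered 16 lower and 17 higher of the 2299 with 3 or more probe sets. They were 2 and 5 of 885 with 4 or more, and 2 and 1 of 341 with 5 or more. A few results reversed when other probe sets stood for the gene: the mean ratio of Mtg2 became -0.91 with a floor of 50 or without shared-probe sets and -0.56 with the pseudocount, that of Phospho2 became 0.16, and Eepd1's limb-minus-back value, halved, became 0.34 without shared-probe sets. Of the values of named genes under the alternatives, 410 moved by less than the spread between probe sets and 115 by more. The causes were not tested.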
